A study of Mus musculus with 4 samples.

Results

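The cells described here are bone marrow cells gated as Car1 and Klf1 erythroid progenitors, red cell precursors on their way from multipotent progenitors to haemoglobin-filled erythroblasts. They were chosen by measured counts of unique molecular identifiers (UMIs, each standing for 1 captured RNA molecule). A cell needed at least 2 UMIs of Car1, at least 1 of Klf1, at least 1 UMI of 1 of the 4 genes Ermap, Slc25a21, Sphk1 and Myh10, and 0 UMIs of the platelet gene Pf4. Of 37717 cells that passed the quality filters, 3164 (8.39%) met the rule, with 443 to 639 cells in each of 6 mice.

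Red cells form in the marrow under the control of the transcription factors GATA1 and KLF1 and of the hormone erythropoietin, which acts through its receptor Epor. Early erythroid progenitors divide quickly, take up iron through the transferrin receptor and switch on the enzymes of heme synthesis before they fill with globin. Car1 encodes a carbonic anhydrase of early erythroid cells, Klf1 the erythroid Krüppel-like factor, Ermap a membrane protein of erythroid cells, Slc25a21 a mitochondrial carrier, Sphk1 a sphingosine kinase and Myh10 a non-muscle myosin heavy chain.

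All 6 mice were 6-week-old females of the genotype Tppp3CreER LSLTdTomato, in which tamoxifen releases a Cre recombinase expressed from Tppp3 that switches on a tdTomato reporter. Per the labels, 2 mice had tamoxifen on postnatal days 0 and 3, 2 had tamoxifen together with rapamycin on those days, and 2 had rapamycin only, on postnatal day 30. The last are called late rapamycin mice, and they had no tamoxifen. The series text gives the time to isolation in another way than the ages on the samples, so the interval from treatment to harvest is uncertain. Rapamycin blocks the growth-promoting kinase complex mTORC1. Transcripts of the Cre and of tdTomato were not among the features, so labelled and unlabelled cells could not be separated. Cells of the lineage-negative Sca+Kit+ and Sca-Kit+ sorts and whole marrow were loaded together, so cell shares depend on how they were mixed. On each of 2 processing days 1 mouse of each treatment was tagged with its own antibody hashtag and run in a common pool, so n = 2 mice per treatment, 1 per day, and values are given below for day 1 and then day 2. The treatments follow the deposited hashtag table, which calls the late rapamycin mice controls. The sample labels number the mice otherwise. If their numbers are hashtag numbers, the tamoxifen and the tamoxifen with rapamycin mice are exchanged. The first treatment comparison below then changes sign, and the other treatment comparisons trade places and change sign too.

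The gated cells of a mouse held 4105888 to 9000204 UMIs in sum, with medians per cell of 9481 to 10012 UMIs on day 1 and 13564 to 14490 on day 2. Their median over all mice was 11672.5 UMIs, while the median of all kept cells in a mouse was 3039 to 4606. Of the gated cells, 38.9% were among the 5% deepest kept cells of their mouse. Doublets of cells from a single mouse share a hashtag and were not removed. No gated cell had a barcode that occurred on both days, against 126 barcodes over the whole series. Late rapamycin mouse 1 stood apart from the others by its neutrophil transcripts, which summed to 77312 CPM (UMI counts scaled to the usual common total per library) outside the gate, against 25034 to 33525 in the other mice.

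The upstream sequences of the gate genes Klf1 and Ermap and of the 3 globin genes that differed between treatments are shown because members of the GATA and KLF factor families bind such motifs in erythroid genes. Each sequence is the 250 bases before the annotated start in RefSeq on GRCm38.p6, written 5′ to 3′ in the direction of transcription, with matches on either strand in capitals. The GATA motif was searched as AGATAA and, as a variant of it, TGATAA, and the CACC-type motif as CCNCNCCC, where N is any base. Klf1 lies at chr8:84901732-84901981 on the plus strand, Ermap at chr4:119189996-119190245 on the minus strand and Hba-a1 at chr11:32283422-32283671 on the plus strand. Hbb-bs lies at chr7:103827929-103828178 and Hbb-bt at chr7:103813924-103814173, both on the minus strand.
Klf1: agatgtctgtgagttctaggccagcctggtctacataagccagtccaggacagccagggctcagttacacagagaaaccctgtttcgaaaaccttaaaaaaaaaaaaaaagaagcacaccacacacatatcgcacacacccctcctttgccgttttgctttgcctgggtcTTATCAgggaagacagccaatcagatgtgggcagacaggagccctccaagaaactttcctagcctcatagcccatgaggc
Ermap: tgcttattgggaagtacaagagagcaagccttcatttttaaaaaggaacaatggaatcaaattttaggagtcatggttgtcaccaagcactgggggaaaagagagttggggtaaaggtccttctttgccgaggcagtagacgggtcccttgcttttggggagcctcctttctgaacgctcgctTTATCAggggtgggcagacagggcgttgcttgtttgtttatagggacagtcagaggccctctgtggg
Hbb-bs: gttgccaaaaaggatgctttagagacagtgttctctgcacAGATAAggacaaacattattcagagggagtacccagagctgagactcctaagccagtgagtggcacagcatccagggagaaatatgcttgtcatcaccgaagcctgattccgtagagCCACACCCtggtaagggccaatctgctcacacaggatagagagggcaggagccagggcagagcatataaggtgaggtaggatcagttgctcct
Hbb-bt: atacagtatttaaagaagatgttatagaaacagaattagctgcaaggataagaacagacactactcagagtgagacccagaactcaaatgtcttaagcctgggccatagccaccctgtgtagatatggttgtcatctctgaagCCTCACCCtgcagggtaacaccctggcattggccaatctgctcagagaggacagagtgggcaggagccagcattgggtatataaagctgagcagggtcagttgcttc
Hba-a1: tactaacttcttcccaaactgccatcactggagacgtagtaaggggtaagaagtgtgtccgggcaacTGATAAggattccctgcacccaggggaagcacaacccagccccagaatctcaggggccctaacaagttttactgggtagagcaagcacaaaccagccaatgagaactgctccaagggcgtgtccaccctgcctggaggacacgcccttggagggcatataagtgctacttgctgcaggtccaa
Klf1 and Ermap each held TTATCA, which is TGATAA on the other strand, beginning 80 and 67 bases before the start. Hbb-bs held AGATAA and CCACACCC, Hbb-bt held CCTCACCC and Hba-a1 held TGATAA. Over 32851 promoters of that length, 16.6% held AGATAA or TGATAA and 45.9% held CCNCNCCC. Of the other gate genes, neither of 2 promoters of Slc25a21 held a GATA motif, 2 overlapping promoters of the 5 of Sphk1 held AGATAA on the minus strand, and the promoter of Myh10 held none. A match describes letters only, and binding at these sites was not measured.

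The genes of the gate give the range within which the cells lie, as a description without a test. Car1 had a median of 31 UMIs per gated cell and at most 239. Klf1 had a median of 3 UMIs and at most 13. Slc25a21 had a median of 19 UMIs and was seen in 97.9% of the cells, Ermap a median of 6 UMIs in 96.2%, Myh10 a median of 2 in 81.6% and Sphk1 a median of 1 in 69.6%. Most cells therefore carried several of the 4 optional genes, although 1 was enough.

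CPM values below are those of a mouse's gated cells after edgeR's TMM scaling of library sizes, unless said otherwise. Klf1 was the steadiest gate gene, at 272 and 272 CPM in the tamoxifen mice, 285 and 265 with rapamycin added, and 275 and 276 in the late rapamycin mice. Car1 stood at 3448 and 3678 CPM with tamoxifen, 2895 and 3259.7 with tamoxifen and rapamycin, and 2925 and 2591 in late rapamycin mice. Both tamoxifen mice were the highest for Car1. Sphk1 followed the same order by treatment, with 177 and 187, 137 and 128, and 117 and 131 CPM. Ermap was lowest in the late rapamycin mice (517 and 509 CPM, against 576 to 594 in the other 4 mice). Slc25a21 ran from 1531 to 1892 CPM and Myh10 from 221 to 283.

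Cells on both sides of each threshold were alike in some genes and not in others, given here as untested values of pooled plain CPM. The 49 gated cells with exactly 2 Car1 UMIs held 187 CPM of Gata1 and 303 CPM of the adult β-globin gene Hbb-bt, and the 55 cells left out for having 1 Car1 UMI held 191 and 568 CPM. All gated cells together held 182 CPM of Gata1 and 46.6 of Hbb-bt, so Hbb-bt was higher at the low end of Car1 on both sides of the threshold. The 695 gated cells with 1 Klf1 UMI held 164 CPM of Gata1, and the 591 cells left out for having none held 153. For the stem and precursor factor Gata2 the values were 51.1 and 93.8 CPM. The 72 cells that lacked all 4 optional genes stood further away, with 119 CPM of Gata1, 21.0 of Epor and 370 of Gata2, against 84.6 CPM of Epor and 24.1 of Gata2 in the gated cells. Pf4 kept out 44 cells.

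Marker lists of 9 lineages were compared with all other kept cells in each mouse. Of 19 measured erythroid markers outside the gate, 18 were more than 2-fold higher in the gated cells in all 6 mice, and Cnrip1 was more than 2-fold lower. The neutrophil (12 of 12 genes), monocyte (10 of 10), B cell (10 of 11), T cell (9 of 10), basophil and mast cell (10 of 10), megakaryocyte (12 of 16) and stem and multipotent progenitor (12 of 14) lists were more than 2-fold lower in all 6 mice. The defining platelet genes Gp1bb, Gp6 and Ppbp, the T cell gene Cd8a and the mast cell and basophil genes Cma1, Fcer1a and Cd200r3 had 0 UMIs in the gated cells. Of 10 macrophage genes, only the iron exporter Slc40a1 was more than 2-fold higher, and 4 were lower. The markers thus matched the label of erythroid progenitors.

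To place the cells along the pathway, every cell was thinned to 3000 UMIs, leaving out 39 shallower gated cells, and the share of cells with at least 1 UMI was set beside 2 reference gates. One is a precursor gate of 1205 cells with Gata2 and Apoe but no Car1, Klf1, Pf4, Cpa3, Mcpt8 or Ms4a2. The other is a reference of 2317 B cells gated on Cd79a and Cd79b, which should lack erythroid RNA. After leaving out shallower cells, 90 to 233 precursor cells and 15 to 184 B cells of a mouse remained, with the fewest of both in late rapamycin mouse 1. The median depths of the whole gates were 3264 to 5308 and 1367 to 2527 UMIs. Gata1 was seen in 44.2% and 41.8% of gated cells with tamoxifen, 45.1% and 40.3% with tamoxifen and rapamycin and 39.1% and 43.0% in late rapamycin mice (78.3% to 88.3% before thinning), against 0% to 0.813% of B cells. Epor was seen in 17.9% to 22.6% of gated cells (50.9% to 66.8% before thinning) and in no thinned B cell. The blood group gene Rhag was seen in 36.4% to 47.2% of gated cells (70.7% to 87.3% before thinning) and in at most 1.23% of B cells. For Gata1 and Epor the shares of the 3 treatments overlapped.

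Other genes set the cells apart from their precursors. The stem cell antigen gene Cd34 was seen in 1.16% to 1.98% of thinned gated cells and in 32.2% to 54.5% of precursor cells. The stem cell factor receptor gene Kit fell between, with 30.8% to 36.6% of gated and 54.4% to 71.6% of precursor cells. The proliferation gene Mki67 was seen in 84.5% to 90% of gated and 36.5% to 66.4% of precursor cells. Alas2, the erythroid form of the first heme enzyme, was seen in only 1.65% to 2.82% of gated cells.

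Globin RNA was unevenly spread within the gate. After thinning, 60.5% to 68.2% of the gated cells of a mouse had no globin UMI and 7.44% to 13.3% had at least 5. Hbb-bs was seen in 25.8% and 22.6%, 30.0% and 24.3%, and 22.1% and 21.0% of thinned cells in the 3 treatments (35.1% to 42.3% before thinning), against 0% to 3.70% of B cells. Before thinning, the 10 cells with the most globin UMIs held between 42.0% and 59.1% of the globin UMIs of each mouse, with up to 1290 UMIs in a cell. Genes of heme synthesis were even by comparison, since 10 cells held 3.65% to 5.07% of their UMIs and the median thinned cell had 10 to 12. Across 3125 thinned cells, the globin and heme sums had a Spearman rho of 0.554, and the S phase and G2M sums one of 0.0542. These are descriptions over cells that share libraries and a fixed depth.

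The gated cells were then set beside the precursor gate in the same 6 mice. Because both gates were set by measured erythroid genes, the contrast describes the gates and the calls of edgeR's quasi-likelihood test support nothing further. Of 11932 genes tested, 79.7% were called (adjusted p under 0.05), 39.8% higher and 39.8% lower. Levels are mean CPM ± SD over 6 mice, scaled jointly for both gates.

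Heme synthesis was higher throughout: 21 of 22 genes were higher and 1 lower. The enzyme genes Cpox (431 ± 46.9 CPM in the gated cells, 22.1 ± 5.08 in precursors) and Alad (286 ± 20.6 and 32.6 ± 4.93) differed by log2 fold changes of 4.21 and 3.15. Alas1, the housekeeping form of the first enzyme, was the exception (23.8 ± 4.62 and 41.3 ± 8.34 CPM). Alas2 reached only 8.24 ± 2.58 CPM. Of 19 iron genes 15 were higher and 2 lower, among them the transferrin receptor gene Tfrc (342 ± 20.3 and 28.5 ± 7.21) and the ferritin gene Fth1 (3318 ± 119 and 789 ± 22.4).

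Red cell membrane genes were 20 higher and 1 lower of 23. The ankyrin gene Ank1 stood at 349 ± 20.8 CPM against 4.13 ± 4.10, and the adducin gene Add2 at 165 ± 12 against 0.225 ± 0.354. The exception was the glucose transporter gene Slc2a1 (0.828 ± 0.677 and 15.2 ± 1.82). All 4 measured globin genes were higher, with Hbb-bs at 867 ± 334 CPM against 27.4 ± 45.9.

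Erythroid and related transcription factors were split, with 16 of 29 higher and 10 lower. Gata1 (211 ± 15.8 and 34.0 ± 15.2 CPM), its partner repressor Gfi1b (155 ± 16.2 and 22.9 ± 5.47) and E2f4, a cell cycle factor (192 ± 4.51 and 34.4 ± 4.65), were higher. The factors Fli1 (26.7 ± 4.50 and 529.6 ± 17.4) and Erg (16.2 ± 3.09 and 338 ± 39.5), which serve stem cells and megakaryocytes, and the myeloid factor Spi1 (9.94 ± 6.28 and 93.8 ± 13.9) were lower. Myb, a factor of proliferating progenitors, stood at 480.4 ± 14.6 and 499 ± 29.1 CPM and was not called.

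Among receptors and signalling genes of erythropoietin and stem cell factor, 2 of 24 were higher and 20 lower. Epor was higher (96.8 ± 5.47 and 5.83 ± 4.34 CPM), while Kit (171 ± 11.5 and 347 ± 51.4) was lower. All 79 cytosolic ribosomal protein genes and all 30 ribosome biogenesis genes were higher, by median log2 fold changes of 0.81 and 1.40. S phase genes were higher in 39 of 41 cases and G2M genes in 36 of 40. Immediate early genes (14 of 16 lower), interferon genes (23 of 32 lower) and MHC class II genes (8 of 8 lower) went the other way.

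**Figure D1:**
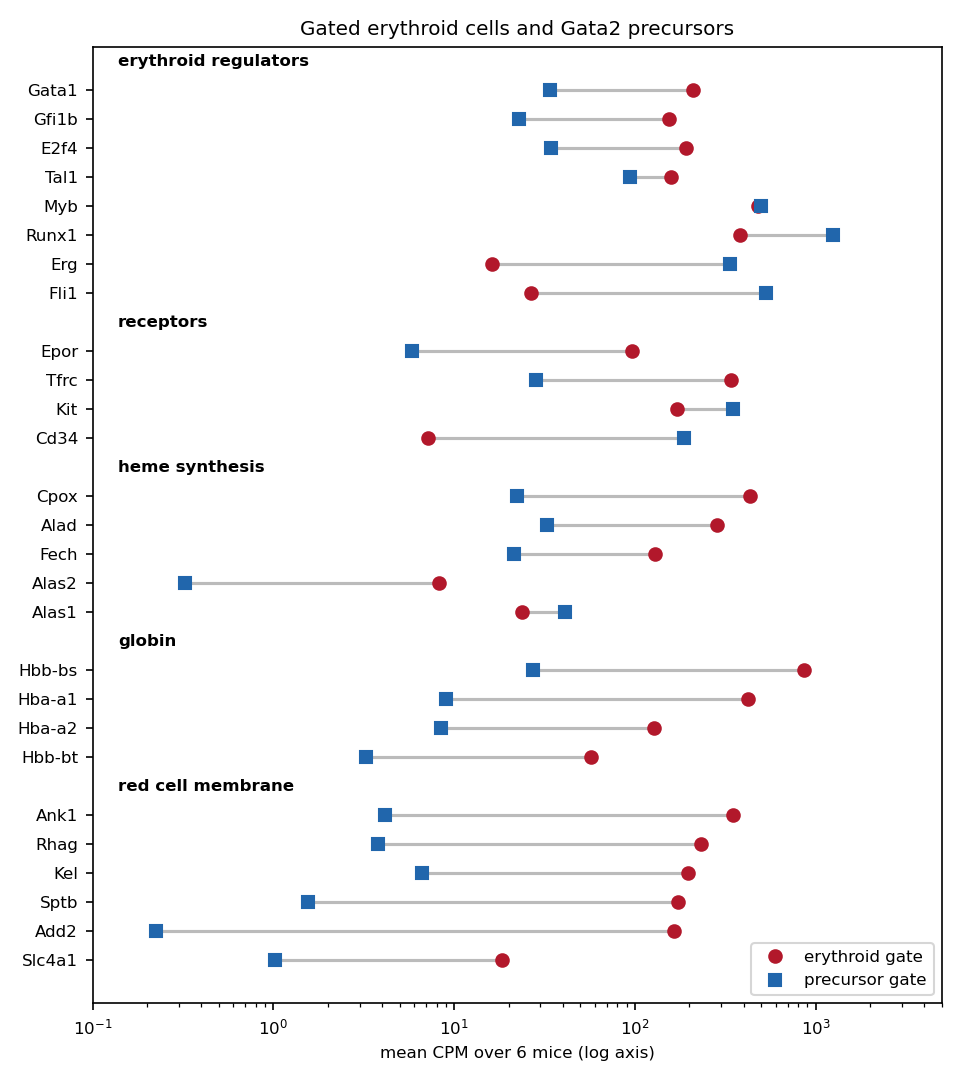
Mean CPM over 6 mice (log axis, scaled jointly) of regulators, receptors, heme, globin and membrane genes in the erythroid gate (circles) and the precursor gate (squares). Add2 and Ank1 are far higher in the erythroid gate, Cd34 and Erg in the precursor gate, while Myb lies at nearly the same level in both.

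The first question between treatments was whether the share of these cells differed. Gated cells made up 8.47% (95% Clopper-Pearson interval 7.79% to 9.18%) and 10.3% (9.51% to 11.1%) of kept cells in the tamoxifen mice. They made up 7.11% (6.49% to 7.78%) and 7.64% (6.99% to 8.34%) with tamoxifen and rapamycin, and 6.69% (6.12% to 7.30%) and 10.5% (9.74% to 11.3%) in the late rapamycin mice. The means were 9.37% ± 1.28, 7.38% ± 0.376 and 8.59% ± 2.69 (SD, n = 2). The tamoxifen with rapamycin mice lay below the tamoxifen mice on both days, with a mean difference of -1.99 points and an exact two-sided permutation p of 0.333, the smallest that 2 against 2 mice allow. At 95% hashtag purity the day 2 difference was 0.192 points, above 0, and the mean was -1.09 points without tamoxifen mouse 2 and -3.68 with stricter cell filters. The late rapamycin mice spanned the range of the others, and the exact permutation p was 1 against either treatment. Intervals cover counting error only.

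**Figure D2:**
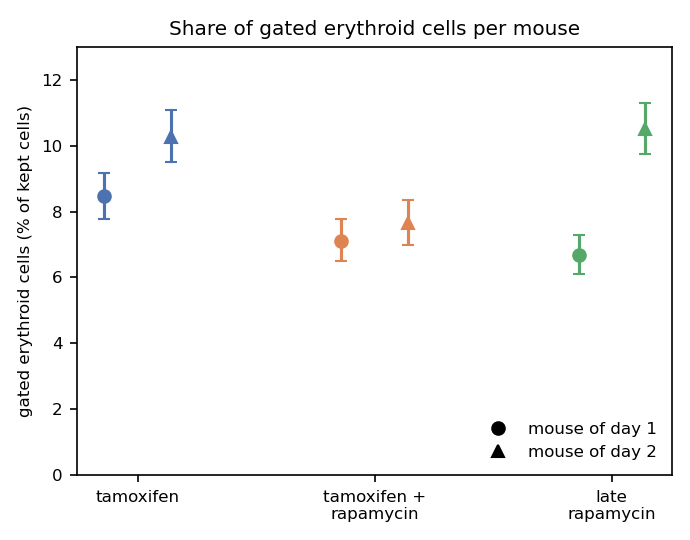
Percent of kept cells that met the erythroid gate in each mouse, with exact 95% intervals, by treatment and day. Both tamoxifen with rapamycin mice lie below both tamoxifen mice, and the late rapamycin mice lie at 6.69% and 10.5%.

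In the gated cells 10831 genes were tested between treatments with day as a block. Between tamoxifen with rapamycin and tamoxifen alone, 64 genes passed edgeR's adjusted p of 0.05, which is 0.591% of those tested (36 or 0.332% higher and 28 or 0.259% lower with rapamycin). These counts rest on few mice. They were 5 and 10 without tamoxifen with rapamycin mouse 1 or mouse 2, and 373 and 371 without late rapamycin mouse 1 or mouse 2, when the lone mouse left in a group is assumed to vary like the others.

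Globin transcripts were higher with tamoxifen and rapamycin. The adult β-globin gene Hbb-bs was at 685 and 489 CPM with tamoxifen, 1052 and 1175 with tamoxifen and rapamycin, and 511 and 603 in late rapamycin mice, so both tamoxifen with rapamycin mice were above the other 4. It rose by a log2 fold change of 0.93 ± 0.12 (SE, edgeR adjusted p = 0.0024) over tamoxifen. Hbb-bt was at 36.0 and 21.9, 80 and 79.3, and 39.5 and 42.0 CPM, and rose by 1.52 ± 0.15 on the log2 scale (edgeR adjusted p = 0.00029). The α-globin gene Hba-a1 was at 342 and 287, 472 and 529, and 249 and 326 CPM, and rose by 0.67 ± 0.11 on the log2 scale (edgeR adjusted p = 0.011). Its near-identical copy Hba-a2 was at 107 and 76.7, 155 and 164, and 54.7 and 104 CPM and did not pass (log2 fold change 0.82 ± 0.20, edgeR adjusted p = 0.12). Thus 3 of the 4 globin genes tested, of 10 among the features, were called. Reads cannot always be assigned between such copies, so the split between Hba-a1 and Hba-a2, and between Hbb-bs and Hbb-bt, is uncertain.

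The share of thinned cells with Hbb-bt was highest with tamoxifen and rapamycin, at 4.36% and 3.97%, 6.98% and 7.59%, and 5.53% and 4.91% (9.42% to 14.1% before thinning, and at most 1.23% of B cells). That of Hba-a1 was not, at 25.0% and 23.3%, 24.9% and 20.2%, and 20.2% and 20.6% (31.7% to 46.6% before thinning). The share of cells with no globin UMI was 62.6% and 64.6%, 60.5% and 65.9%, and 67.7% and 68.2%, and overlapped between tamoxifen with and without rapamycin. Summed over the list in plain CPM, globin stood at 1158 and 856, 1752 and 1963, and 865 and 1082. Without the 10 cells of each mouse with the most globin it was 609 and 500.2, 727 and 1154, and 481 and 463, and the tamoxifen with rapamycin mice were still the highest. Outside the gate the order was another: in B cells the globin sums were 4.63 and 1430, 268 and 25.7, and 5.37 and 11.5 CPM, and in all other cells 153 and 115, 76.6 and 199, and 43.0 and 231. The part of free globin RNA in the difference was not tested. All 3 globin calls were lost without tamoxifen with rapamycin mouse 1 or mouse 2. They were lost too when the top hashtag had to hold 95% of hashtag UMIs, where the median log2 fold change of the 4 globin genes was 1.39 against 0.88.

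**Figure D3:**
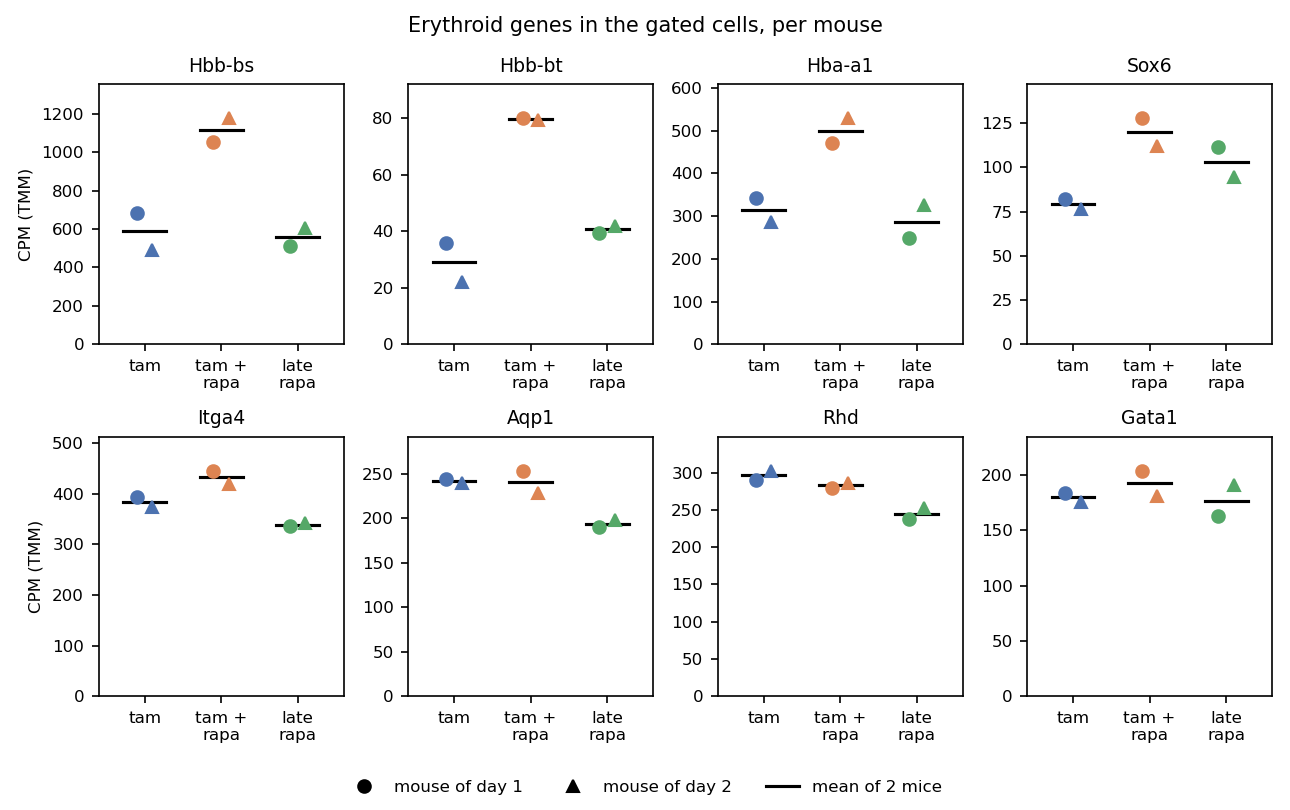
TMM-scaled CPM of 8 erythroid genes in the gated cells of each mouse, for tamoxifen (tam), tamoxifen with rapamycin (tam + rapa) and late rapamycin (late rapa) mice. Circles are day 1, triangles day 2 and lines the mean of 2 mice. The 3 globin genes are highest with tamoxifen and rapamycin, Aqp1 and Rhd are lowest in late rapamycin mice, and Gata1 overlaps between treatments.

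Of 22 heme synthesis genes and 19 iron genes none passed edgeR's test, with median log2 fold changes of 0.02 and 0.03 against 0.00 over all genes. At an unadjusted p under 0.05, 938 of the 10831 genes passed, and DESeq2 called 21 genes in all. Alas2 was at 6.00 and 4.45, 10.5 and 8.98, and 5.78 and 7.18 CPM (log2 fold change 0.92 ± 0.27, edgeR adjusted p = 0.23). Of 30 erythroid transcription factors, Sox6 was called higher. Sox6, which represses embryonic globin and promotes red cell maturation, was at 82.3 and 76.4 CPM with tamoxifen, 128 and 112 with tamoxifen and rapamycin, and 111 and 94.5 in late rapamycin mice. It rose by 0.59 ± 0.08 on the log2 scale (edgeR adjusted p = 0.0024), a call that was lost without tamoxifen with rapamycin mouse 1 or mouse 2. Gata1 was at 184 and 176, 204 and 181, and 163 and 191 CPM and was not called (log2 fold change 0.10 ± 0.08, edgeR adjusted p = 0.84).

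Of 22 red cell membrane genes, 11 had log2 fold changes above 0 and 11 below, with a median of 0.00. The water channel gene Aqp1 (log2 fold change -0.01 ± 0.07, edgeR adjusted p = 0.99) and the blood group gene Rhd (-0.07 ± 0.06, edgeR adjusted p = 0.83) were not called.

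Among 17 genes of erythropoietin and stem cell factor signalling, 2 rose. The adaptor gene Gab2 was at 36.8 and 40.8, 91.7 and 94.7, and 157 and 91.4 CPM, and rose by 1.25 ± 0.18 on the log2 scale (edgeR adjusted p = 0.0049). The kinase gene Pim1, a target of cytokine signalling through STAT5, was at 17.8 and 16.8, 39.9 and 31.6, and 45.0 and 27.6 CPM, and rose by 1.02 ± 0.15 (log2, edgeR adjusted p = 0.0081). The tamoxifen mice were the lowest in both genes, and both calls were lost without tamoxifen with rapamycin mouse 1 or mouse 2. The receptor genes Epor (82.7 and 92.3, 77.8 and 84.6, and 83.0 and 83.8 CPM) and Kit (149 and 155, 146 and 131, and 159 and 150.5 CPM) were not called.

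Other calls lay outside the erythroid lists. Lpin1, which encodes a lipid phosphatase, was at 14.6 and 12.4, 41.6 and 39.1, and 13.4 and 10.7 CPM (log2 fold change 1.59 ± 0.14, edgeR adjusted p = 0.00015). Mboat2, which encodes a lysophospholipid acyltransferase, was at 202 and 218, 100 and 107, and 152 and 185 CPM and fell by 1.02 on the log2 scale (SE 0.07, edgeR adjusted p = 2.8e-05). Gatm, the first enzyme gene of creatine synthesis, was at 188 and 203, 123 and 108, and 208 and 195 CPM and fell by 0.78 (log2, SE 0.08, edgeR adjusted p = 0.00029). The Mboat2 call held without any mouse in turn, while those of Lpin1 and Gatm were lost without either tamoxifen with rapamycin mouse.

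The initiation factor gene Eif3j2 was at 3.40 and 2.05 CPM with tamoxifen, 25.7 and 30.5 with tamoxifen and rapamycin, and 3.31 and 2.21 in late rapamycin mice (log2 fold change 3.44 ± 0.27, edgeR adjusted p = 6.6e-05). Its paralog Eif3j1 went the other way, at 134 and 147, 104 and 111, and 143 and 149 CPM, and fell by 0.38 (log2, SE 0.07, edgeR adjusted p = 0.025). Their sequences are near-identical and reads can be split between them, so neither change can be assigned to a gene with certainty. Igtp was the only one of 28 interferon genes called, at 7.80 and 6.26, 18.3 and 12.4, and 9.09 and 8.62 CPM (log2 fold change 1.10 ± 0.22, edgeR adjusted p = 0.043). Further genes that rose were Cldn10 (log2 fold change 3.97), Ccl5 (3.61), Plekha7 (2.03), Sfrp4 (1.74), Rec8 (1.60), H2-Q6 (1.29) and Prkcq (1.28). Further genes that fell were Hist1h2bl (-2.38), Jmjd7 (-1.35), Rnf17 (-1.11), Asap2 (-0.94), C1qtnf12 (-0.88), Zfp1 (-0.78), Xylt1 (-0.77) and Banp (-0.68). The calls of Igtp and of all these further genes, in both directions, were lost without either tamoxifen with rapamycin mouse.

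Between late rapamycin and tamoxifen, 197 genes passed, which is 1.82% of those tested (100 or 0.923% higher and 97 or 0.896% lower in late rapamycin mice). Without late rapamycin mouse 1, 385 passed, and 161 of them were among the 197. Without tamoxifen with rapamycin mouse 1, 83 passed. Of 22 red cell membrane genes, 20 had log2 fold changes below 0, with a median of -0.17, and 3 were called lower, with Aqp1 and Rhd among them. EdgeR called none of the 22 at 95% hashtag purity and 1 without the day block. DESeq2 called none either, but it gave no adjusted p to 9663 of 10831 genes in this comparison. Genes without one could not be called, so its result does not bear on the 22.

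Aqp1 was at 244 and 239, 253 and 228, and 189.6 and 198 CPM, and fell by 0.32 (log2, SE 0.07, edgeR adjusted p = 0.029). Rhd, of the Rhesus blood group complex, was at 291 and 303, 279.8 and 286, and 238 and 252 CPM, and fell by 0.27 (log2, SE 0.06, edgeR adjusted p = 0.029). In both genes the late rapamycin mice were the lowest of the 6, and in Aqp1 the mice of the other treatments overlapped.

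Of 22 heme genes, Blvrb was called lower, and the list's median was -0.08. Blvrb, a biliverdin reductase of erythroid cells, was at 986 and 1014, 859 and 905, and 854 and 880.0 CPM and fell by 0.21 (log2, SE 0.04, edgeR adjusted p = 0.037). Ces2g, a carboxylesterase gene on the erythroid marker list, was at 214 and 207, 174 and 175, and 170.4 and 166 CPM and fell by 0.32 (log2, SE 0.06, edgeR adjusted p = 0.017). With Aqp1 and Rhd these were 4 of 18 erythroid markers tested, all lower. The calls of Aqp1, Rhd, Blvrb and Ces2g were lost without either tamoxifen mouse and without either tamoxifen with rapamycin mouse, with log2 fold changes that stayed below 0. No globin gene was called, and the median of the 4 was -0.09. This differed with single mice left out: without late rapamycin mouse 2 or tamoxifen mouse 2, 3 of 4 globin genes were called lower, and without late rapamycin mouse 1 or tamoxifen mouse 1, 2 and 1 of 5 were called higher.

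Gab2 rose by 1.60 ± 0.17 on the log2 scale (edgeR adjusted p = 0.00033) and Pim1 by 1.00 ± 0.15 (edgeR adjusted p = 0.0041), as 2 of 4 signalling genes that rose of 17. The sialomucin gene Podxl was at 0.799 and 0.481, 6.60 and 4.49, and 25.2 and 1.66 CPM (log2 fold change 3.89 ± 0.75, edgeR adjusted p = 0.021). It rested on late rapamycin mouse 1, without which its log2 fold change was 1.68 and the call was lost. The feedback inhibitor gene Socs2 was at 0.600 and 0.722, 3.42 and 1.93, and 4.34 and 2.54 CPM (log2 fold change 2.22 ± 0.51, edgeR adjusted p = 0.049), a call kept in 1 of 6 leave-outs. Sox6 rose by 0.37 ± 0.08 (log2, edgeR adjusted p = 0.029), a call kept in 3 of 6 leave-outs. Gab2 kept its call in all 6 leave-outs.

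Chaperone genes rose in the late rapamycin mice. Of 18 tested, 17 had log2 fold changes above 0 with a median of 0.32 and 8 were called, all higher. Leaving out each mouse gave 6 to 9 calls, and leaving out the day block 3. Hsph1, which encodes a co-chaperone of HSP70, was at 135 and 131, 193 and 144, and 243 and 239.7 CPM, and rose by 0.86 ± 0.09 on the log2 scale (edgeR adjusted p = 0.00019). The endoplasmic reticulum chaperone gene Hspa5 was at 450.3 and 446, 495 and 468, and 601 and 611 CPM, and rose by 0.44 ± 0.05 (log2, edgeR adjusted p = 0.00098). Hspa8, whose product assists folding of new proteins, was at 1733 and 1849, 1482 and 1331, and 2202 and 2433 CPM, and rose by 0.37 ± 0.06 (log2, edgeR adjusted p = 0.0065). The late rapamycin mice were above the other 4 mice in all 3 genes.

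Hsp90aa1 had a different order. It was at 2079 and 2102 CPM with tamoxifen, 2661 and 2683 with tamoxifen and rapamycin, and 2637 and 2741 in late rapamycin mice, and rose over tamoxifen by 0.36 ± 0.04 (log2, edgeR adjusted p = 0.0002) in late rapamycin mice and by 0.35 ± 0.04 (edgeR adjusted p = 0.00035) with tamoxifen and rapamycin. Hspa8 fell by 0.35 with tamoxifen and rapamycin (log2, SE 0.06, edgeR adjusted p = 0.016), so the 2 chaperone genes called in that comparison went in opposite directions. The chaperonin genes Hspe1 (log2 fold change 0.28) and Hspd1 (0.27) and the co-chaperone genes Stip1 (0.35) and Dnaja1 (0.48) completed the 8 calls. The cold-inducible RNA-binding protein gene Rbm3 was at 855 and 879.9, 702 and 684, and 508 and 565 CPM, and fell by 0.69 (log2, SE 0.05, edgeR adjusted p = 2.2e-05) in late rapamycin mice and by 0.32 (SE 0.05, edgeR adjusted p = 0.014) with tamoxifen and rapamycin. The latter call was lost without either tamoxifen with rapamycin mouse.

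The same chaperones moved in the precursor gate. There Hsph1 (log2 fold change 1.47), Hspa5 (0.66), Hspa8 (0.64), Hsp90aa1 (0.54) and Stip1 (0.68) were called higher in late rapamycin than in tamoxifen mice, and no chaperone gene passed a test of the difference between the gates. Summed in plain CPM, the chaperone list of the gated cells stood at 11386 and 11404, 12660 and 12316, and 13894 and 14264. In the precursor gate the sums were 6019 and 5801, 6148 and 5995, and 7606 and 7664. In all other kept cells they were 6827 and 5904, 6804 and 6240, and 9612 and 7379. B cells differed by day, at 5688 and 5037, 6127 and 5423, and 5195 and 6943, with late rapamycin the lowest on day 1. The summed CPM of Rbm3 and Cirbp, the cold-inducible list, also fell in the same treatment order outside the erythroid gate on both days. It was 708 and 682, 527 and 491, and 485 and 428 in the precursor gate. B cells had 981 and 766, 801 and 748, and 472 and 499, and all other kept cells 749 and 650, 573 and 557, and 484 and 423.

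Of 79 cytosolic ribosomal protein genes, 78 had log2 fold changes below 0 against tamoxifen in each comparison, with medians of -0.11 with tamoxifen and rapamycin and -0.14 in late rapamycin mice. The called genes were 5 and 25, all lower. Both comparisons share the tamoxifen mice. Rps15a was at 3021 and 2965, 2624 and 2469, and 2220.0 and 2214 CPM, and fell by 0.43 in late rapamycin mice (log2, SE 0.04, edgeR adjusted p = 6e-05), with the call kept in all 6 leave-outs. Rplp0 was lowest with tamoxifen and rapamycin, at 4299.5 and 4033, 3324 and 3229.5, and 3557 and 3937 CPM, where it fell by 0.35 (log2, SE 0.05, edgeR adjusted p = 0.0044). The 25 calls became 3 and 4 without tamoxifen mouse 1 or mouse 2 and 2 without the day block, and the 5 calls became 0 without either tamoxifen with rapamycin mouse. Ribosomal protein genes have many near-identical pseudogenes that can share reads. No ribosome biogenesis gene (of 30) was called in either comparison, by edgeR, with medians of 0.04 and 0.07.

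**Figure D4:**
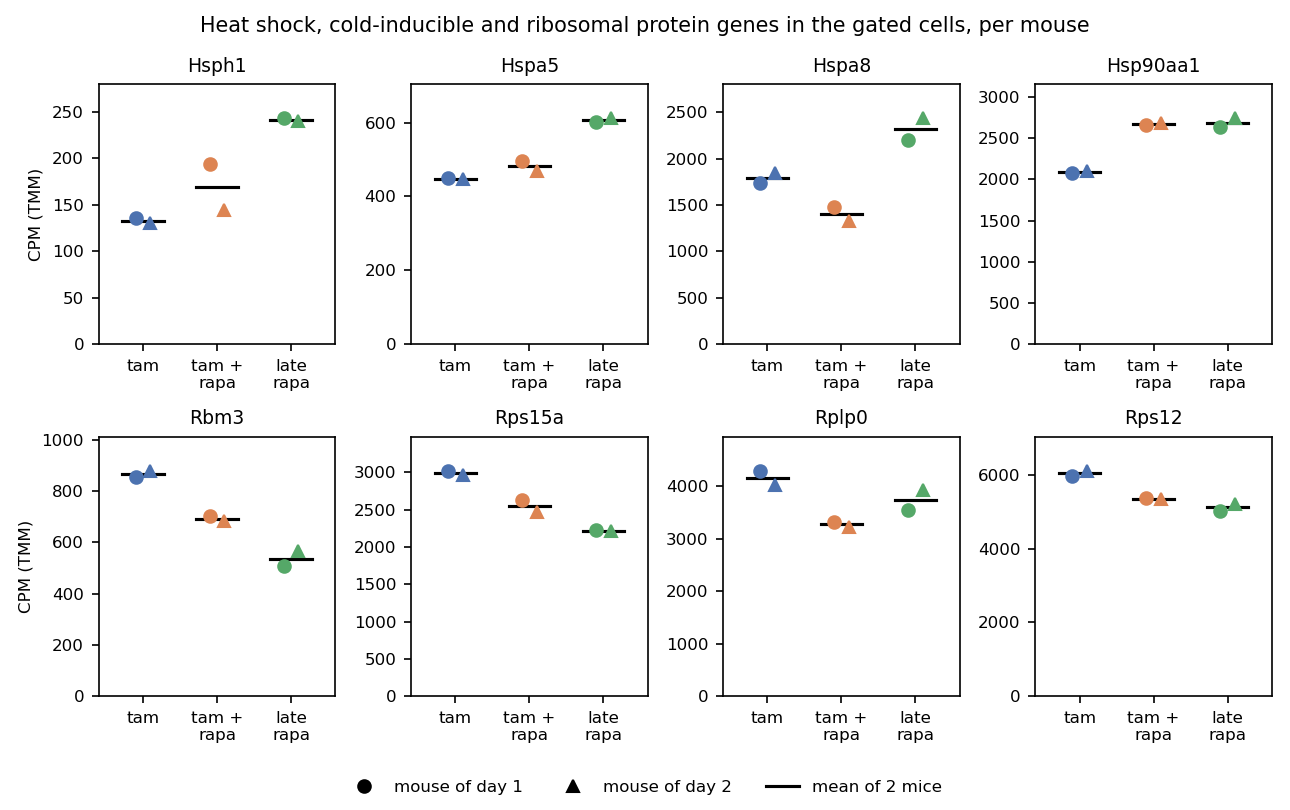
TMM-scaled CPM of 4 chaperone genes, Rbm3 and 3 ribosomal protein genes in the gated cells of each mouse, for tamoxifen (tam), tamoxifen with rapamycin (tam + rapa) and late rapamycin (late rapa) mice. Circles are day 1, triangles day 2 and lines the mean of 2 mice. Late rapamycin mice are highest for Hsph1, Hspa5 and Hspa8, and lowest for Rbm3 and Rps15a.

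Of 17 antioxidant and hypoxia genes, 1 rose and 1 fell in late rapamycin mice. The thioredoxin reductase gene Txnrd1 was at 94.1 and 98.1, 153 and 112, and 169 and 141 CPM (log2 fold change 0.66 ± 0.10, edgeR adjusted p = 0.0035) and kept its call in all 6 leave-outs. The superoxide dismutase gene Sod1 was at 223 and 229, 207 and 197, and 165 and 196 CPM, and fell by 0.32 (log2, SE 0.07, edgeR adjusted p = 0.048), a call kept in 2 of 6 leave-outs. The serine synthesis gene Phgdh (log2 fold change 0.38) and the folate enzyme gene Mthfd2 (0.44) were 2 of 18 ATF4 targets, Pgam1 (0.70) was 1 of 21 glycolysis genes and Jun (0.63) 1 of 14 immediate early genes. Of 34 genes of the mTOR pathway the immunophilin gene Fkbp4 was called. With each mouse left out in turn, Pgam1 kept its call in 4 of 6 fits, Phgdh and Jun in 3, and Mthfd2 and Fkbp4 in 2. No gene was called among 27 cholesterol genes, 30 lysosome and autophagy genes, 41 S phase genes or 40 G2M genes. At an unadjusted p under 0.05, 1452 of all genes passed. DESeq2 called 35, with 9663 genes left without an adjusted p.

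Among the genes with the largest changes outside these lists was Xylt1. This gene of an enzyme that starts proteoglycan chains was at 104 and 98.3, 55.8 and 61.9, and 24.2 and 26.0 CPM, and fell by 2.00 (log2, SE 0.10, edgeR adjusted p = 4.8e-07). Plekha7, a junction protein gene, was at 5.20 and 5.17, 17.4 and 23.9, and 31.6 and 43.0 CPM, and rose by 2.88 ± 0.17 (log2, edgeR adjusted p = 1.1e-06). The netrin gene Ntn4 was at 53.6 and 50.5, 28.9 and 56.6, and 11.6 and 8.18 CPM, and fell by 2.47 (log2, SE 0.25, edgeR adjusted p = 0.00019). Fgd6 was at 37.8 and 40.2, 24.5 and 31.6, and 12.4 and 9.28 CPM, and fell by 1.90 (log2, SE 0.16, edgeR adjusted p = 5.8e-05). These 4 calls held without any mouse in turn. Tceal3 (-1.80), Spry4 (-1.78), Ltbp1 (-1.74), Adgrg1 (-1.38), Prss50 (-1.03), Rab30 (-0.97) and Tmem241 (-0.93) fell as well, in log2 fold changes, and Cldn10 (3.86) and Hs6st2 (2.00) rose. Of these, Spry4, Rab30 and Tmem241 lost their calls without tamoxifen mouse 2 and without either tamoxifen with rapamycin mouse. Adgrg1 lost its call without tamoxifen with rapamycin mouse 1.

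Several of the called genes were close neighbours on a chromosome, in windows of 20 Mb looked at after the calls were seen. On chromosome 7 between 100 and 120 Mb, 6 of 97 genes tested (6.19%) were called between tamoxifen with rapamycin and tamoxifen, against 0.591% of all genes. These were Hbb-bt, Hbb-bs, Sox6, Plekha7, Xylt1 and Rps15a. In the same window 8 of 97 (8.25%) were called between late rapamycin and tamoxifen, against 1.82% of all genes. On chromosome 12, 3 of 45 (6.67%) and 5 of 44 (11.4%) were called in the windows from 0 to 20 and from 20 to 40 Mb with tamoxifen and rapamycin, with Lpin1 in the first and Asap2 and Mboat2 in the second. On chromosome 10 between 80 and 100 Mb, 9 of 142 (6.34%), with Ntn4, Fgd6 and Socs2, were called in late rapamycin mice. Genotypes of the mice at these positions were not measured.

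Between the tamoxifen with rapamycin and the late rapamycin mice, 75 genes passed, 0.692% of those tested (35 or 0.323% higher and 40 or 0.369% lower with tamoxifen and rapamycin). Without late rapamycin mouse 1, 190 passed. The comparison shares its mice with both others, so its values are not independent of them. Hbb-bs was higher by 1.00 ± 0.12 (log2, edgeR adjusted p = 0.0016), Hbb-bt by 0.95 ± 0.14 (edgeR adjusted p = 0.007) and Hba-a1 by 0.80 ± 0.11 (edgeR adjusted p = 0.0031). The median of the 4 globin genes was 0.96, and these calls too were lost without either tamoxifen with rapamycin mouse.

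Of 22 membrane genes 19 had log2 fold changes above 0 in that comparison, with a median of 0.14, and 1 was called. That was the integrin gene Itga4, through which progenitors bind the marrow, at 394 and 374, 446 and 418, and 337 and 341 CPM, and higher by 0.35 ± 0.06 (log2, edgeR adjusted p = 0.011), a call lost without either tamoxifen with rapamycin mouse. Trim10, needed for late red cell maturation, was at 24.0 and 22.5, 33.0 and 30.2, and 19.4 and 19.8 CPM, and was higher by 0.67 ± 0.13 (log2, edgeR adjusted p = 0.029). It was picked from the calls outside the rule for named genes, and its dependence on single mice is not given. The protease gene Ctse was at 345 and 358, 396 and 386, and 279.9 and 265 CPM, and was higher by 0.52 ± 0.06 (log2, edgeR adjusted p = 0.00091). All 18 chaperone genes lay below 0, with a median of -0.25, and 5 were called lower. The 5 calls became 1 without either tamoxifen with rapamycin mouse, without the day block and at 95% hashtag purity. Hspa8 fell by 0.72 (log2, SE 0.06, edgeR adjusted p = 4.9e-05), a call kept in all 6 leave-outs.

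Neutrophil transcripts moved with treatment and day inside the erythroid gate. Summed over 12 markers in plain CPM they stood at 1200 and 376 with tamoxifen, 838 and 461 with tamoxifen and rapamycin, and 4637 and 723 in late rapamycin mice. In the B cell reference they were 3842 and 1926, 2852 and 5169, and 19367 and 4654 CPM, and in the precursor gate 4233 and 1593, 1988 and 3584, and 9798 and 2330, so late rapamycin mouse 1 was the highest in each gate. Of the 12 markers 11 were called higher in late rapamycin than in tamoxifen mice with a median log2 fold change of 1.57, and 7 were called lower in the comparison of tamoxifen with rapamycin against late rapamycin. Between late rapamycin and tamoxifen mice the median was 0.60 without late rapamycin mouse 1. No marker was called by edgeR without the 5% deepest cells (median 0.73), without the day block (1.86) or at 95% hashtag purity (1.92). With at least 2 Klf1 UMIs 2 were called.

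The granule protein gene S100a9 was at 333 and 129, 233 and 112, and 1434 and 215 CPM. The protease gene Elane was at 57.4 and 13.5, 55 and 14.4, and 157 and 32.5 CPM, and rose by 1.38 ± 0.11 in late rapamycin mice (log2, edgeR adjusted p = 2.1e-05). The 10 cells with the most neutrophil UMIs held 48.1% to 73.2% of them in a mouse, and without those cells the sums were 512 and 187, 449 and 192, and 1611 and 198 CPM. Of the gated cells, 86.1% had at least 2 UMIs of the other-lineage lists. Among the genes with the largest rises in late rapamycin mice, Abca13, Cd177, Lrg1, Lcn2 and Chil3 are neutrophil genes. The part of doublets or free RNA in the other results was not tested.

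**Figure D5:**
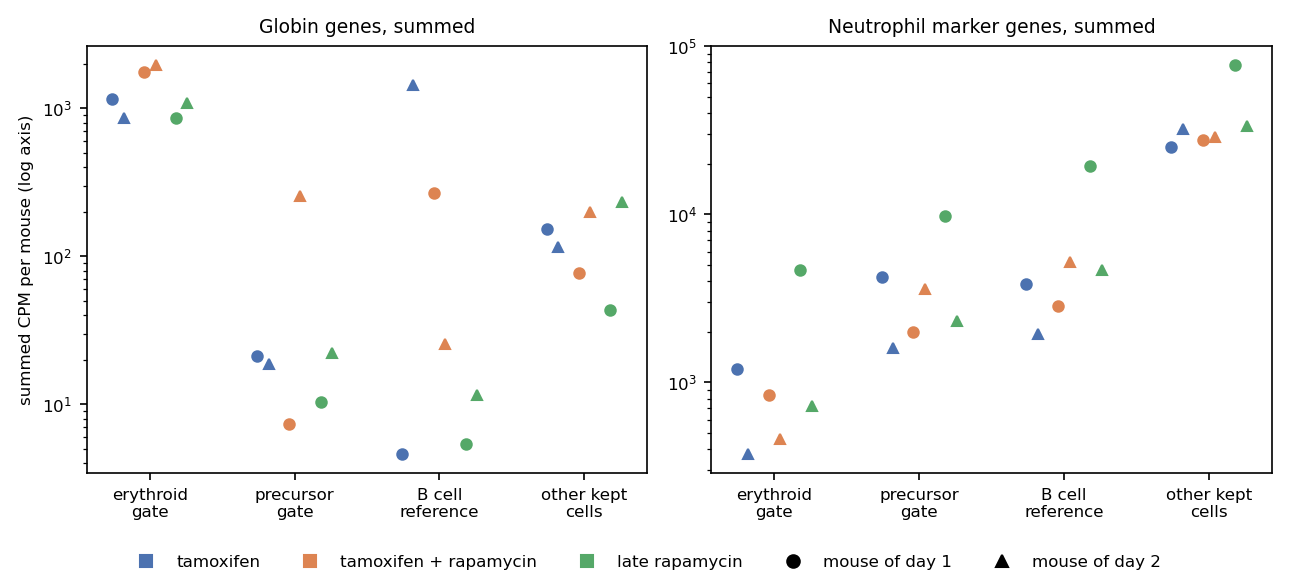
Summed CPM (log axis, plain UMI totals) of the globin list and of the neutrophil markers in each mouse, in the erythroid gate, the precursor gate, the B cell reference and all other kept cells (circles day 1, triangles day 2, colours treatments). Globin is highest in the erythroid gate except in the B cells of tamoxifen mouse 2, and the neutrophil markers of late rapamycin mouse 1 are the highest in every population.

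Between processing days, with treatment as a block, 70 genes passed, 0.646% of those tested (4 or 0.0369% higher and 66 or 0.609% lower on day 2). Of the 12 neutrophil markers 11 were lower on day 2, with a median log2 fold change of -2.04, alongside the sums given above. Mki67 was at 1101 and 982, 1234 and 980.3, and 1083 and 909.6 CPM, and fell by 0.25 (log2, SE 0.04, edgeR adjusted p = 0.0094) on day 2, as 1 of 40 G2M genes. Jun fell by 0.94 (log2, SE 0.12, edgeR adjusted p = 0.0014). Ndufs8, a subunit gene of respiratory complex I, was at 84.1 and 116, 86.8 and 119, and 75.6 and 125 CPM and rose by 0.55 ± 0.07 (log2, edgeR adjusted p = 0.0014), and the histone gene Hist1h2ap rose by 0.57 ± 0.08 (log2, edgeR adjusted p = 0.0022). No globin, heme, iron or membrane gene was called between days by edgeR, where 934 genes had an unadjusted p under 0.05 and DESeq2 called 29 genes.

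Whether a treatment difference was larger or smaller in the erythroid than in the precursor gate was tested for every gene, with each mouse contributing both gates. Of 11932 genes, 31 (0.26%) passed for tamoxifen with rapamycin against tamoxifen, 62 (0.52%) for late rapamycin against tamoxifen and 24 (0.201%) for tamoxifen with rapamycin against late rapamycin. Gab2 rose more in the erythroid than in the precursor gate in both comparisons with tamoxifen, by 0.70 and 0.99 on the log2 scale. For Lpin1 in tamoxifen with rapamycin against tamoxifen, the log2 fold change in the erythroid gate minus that in the precursor gate was 1.84. In late rapamycin against tamoxifen mice, the log2 fold change in the erythroid gate minus that in the precursor gate was -4.40 for Fgd6 and -1.70 for Xylt1. For tamoxifen with rapamycin against tamoxifen it was -1.61 for Hbb-bs and -2.88 for Hba-a1, beside a globin sum in the precursor gate of 256 CPM in tamoxifen with rapamycin mouse 2 and 7.35 to 22.1 in the other 5 mice.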

How the data were processed

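The authors deposited UMI counts per gene and cell for each of 2 processing days, made with Cell Ranger 8.0.1 per the file headers (7.0.0 and mm10 per the submitters' processing notes), and a table of hashtag counts and names. Whether intronic reads were counted is not given in the sources used here. Cells with at least 500 genes, 1000 UMIs, at most 10% mitochondrial UMIs and at least 80% of hashtag UMIs from 1 hashtag were kept. Counts were summed per mouse over the gated cells and tested with edgeR 4.0.16 (quasi-likelihood, TMM, filterByExpr; R 4.3.3), with day as a block for treatments, treatment as a block for days and mouse as a block for the precursor gate. P-values were adjusted by Benjamini-Hochberg over all genes tested, and a gene was called under 0.05. The test was checked on simulated data. The members and lists were chosen with earlier results of these data known. Mice of 1 day are a stated batch with 1 mouse of each treatment, and day was used as a block for that reason. Their deviations correlated at 0.105, 0.241 and 0.107 between treatments. With 2 days the deviations of day 2 mirror those of day 1, so these values are no separate check of the pairing.

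Named genes were up to 10 per direction with the largest change among called genes of the same sign on both days, 10 more by p where fewer than 20 passed, and up to 4 members per list by p. The comparison of gates between treatments, the positions of called genes, the globin promoters and the sums without the 10 highest cells were added after the data were seen. DESeq2 1.42.0 with its Wald test, its size factors in edgeR, no count filter, no block, single mice left out, purer hashtags, a stricter Klf1 gate, stricter cell filters, removal of cells with other-lineage UMIs and removal of the 5% deepest cells were tried as alternatives. Gene positions are from GENCODE M21 on GRCm38. Some genes of the lists are counted but not reported here by name.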

Additional observations from a re-analysis of the deposited data

Results flagged for a closer look

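A treatment difference was looked at again where its size in the erythroid gate and in the precursor gate differed in edgeR's interaction test (adjusted p under 0.05) and the gene was named and called in the erythroid gate. This selection was made after the values were seen. Values are the log2 fold change in the erythroid gate minus that in the precursor gate. For tamoxifen with rapamycin against tamoxifen, the chemokine gene Ccl5 had 8.65, Lpin1 had 1.84, Prkcq, a T cell kinase gene, had 1.34, the MHC class I gene H2-Q6 had 1.07 and Gab2 had 0.70. Xylt1 had -0.76, Hbb-bs -1.61, Gatm -2.08 and Hba-a1 -2.88. Values of Ccl5 in the erythroid gate rested on few UMIs.

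For late rapamycin against tamoxifen, Elane had 1.12, Gab2 0.99, Jun 0.85 and the lysozyme gene Lyz2 0.82. Adgrg1, a receptor gene of stem and progenitor cells, had -0.66, Xylt1 -1.70 and Fgd6 -4.40. For tamoxifen with rapamycin against late rapamycin, Xylt1 had 0.93. Negative values were those of Camp (-0.65), S100a8 (-0.74), S100a9 (-0.78), Ctse (-0.98), Hbb-bs (-1.94) and Hba-a1 (-3.52). The neutrophil genes among these moved with the neutrophil sums, which were highest in late rapamycin mouse 1 in both gates. The globin values stood beside a globin sum in the precursor gate of 256 CPM in tamoxifen with rapamycin mouse 2 and of 7.35 to 22.1 CPM in the others. Their part in the values was not tested.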

How the results depend on the processing

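The counts of called genes depended on the settings, and are given for tamoxifen with rapamycin against tamoxifen (64), late rapamycin against tamoxifen (197), tamoxifen with rapamycin against late rapamycin (75) and day 2 against day 1 (70). They were 21, 35, 25 and 29 with DESeq2, 253, 481, 288 and 242 with no count filter, and 15, 37, 13 and 13 with no replicate block for day. The 35 came from a fit in which DESeq2 gave 9663 of 10831 genes no adjusted p, so it is not comparable with 197. With 95% hashtag purity the counts were 17, 33, 19 and 17. Without gated cells that had at least 2 other-lineage UMIs they were 19, 29, 10 and 3. That filter removed 2723 of the 3164 gated cells and left 7649 genes to test, so fewer calls can follow from fewer cells. Without the 5% deepest cells the counts were 36, 97, 59 and 27. With at least 2 Klf1 UMIs the last 3 were 99, 41 and 46. Leaving out single mice gave 5 to 373, 83 to 652, 8 to 490 and 46 to 198. For the treatments, the counts were 373, 385 and 190 without late rapamycin mouse 1, 371, 652 and 490 without late rapamycin mouse 2, and 5, 83 and 8 without tamoxifen with rapamycin mouse 1. Of the calls in late rapamycin against tamoxifen 50.8% were higher, and 40.2% without the 5% deepest cells. In tamoxifen with rapamycin against late rapamycin they were 46.7% and 69.5%. Against the precursor gate, the count stayed within 1.5 times of its main value in all settings.

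The share of gated cells in tamoxifen with rapamycin minus tamoxifen mice was -1.57 points at 95% hashtag purity, where the day 2 difference was 0.192, and -3.68 with stricter cell filters, against -1.99, and -2.90 to -1.09 with single mice left out (-1.09 without tamoxifen mouse 2). In late rapamycin minus tamoxifen mice it was 0.124 points at 95% hashtag purity and 0.737 without the 5% deepest cells, against -0.777. It was -3.87 with stricter cell filters and -2.92 after thinning, where both late rapamycin mice lay below both tamoxifen mice. With single mice left out it was -2.68 to 1.13 (1.13 without late rapamycin mouse 1, 0.128 without tamoxifen mouse 2). For tamoxifen with rapamycin minus late rapamycin it was 0.191 with stricter cell filters and 0.783 after thinning, against -1.22, and -3.12 to 0.688 with single mice left out (0.688 without late rapamycin mouse 2). Some log2 fold changes changed sign without cells that had at least 2 other-lineage UMIs. These were Prss50 (0.060) in late rapamycin against tamoxifen and Mki67 (0.0016) between days. S100a9 did so too, at -0.083 in late rapamycin against tamoxifen and 0.085 in tamoxifen with rapamycin against late rapamycin. S100a9 is on the lists of that filter, which itself limits its UMIs in the kept cells, so its values there show nothing about treatment. Camp (0.14) changed sign in tamoxifen with rapamycin against late rapamycin without the 5% deepest cells. The cause of the changes in Prss50, Mki67 and Camp was not tested. Genes of fewer than about 10 CPM rest on few UMIs per mouse.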
